A study of Homo sapiens with 4 samples.

Results

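The circular RNAs of 45 host genes that encode parts of the nuclear pore and the transport receptors that pass through it were examined. A circle was taken in when its row named a gene whose symbol was NUP, IPO, XPO, TNPO or KPNA followed by digits, or was KPNB1, TPR, RANBP2, AHCTF1, NDC1 or CSE1L, and when it was not of the antisense type. XPO1 was left out by the same rule. These 45 genes were among 15233 gene names on circles that were not antisense, and they held 2690 of 211599 rows. Of the 2690 circles, 2476 had at least 1 count and 214 had none. KPNA7 had no count, and TNPO2, NUP210 and KPNA2 had fewer than 10, which left 41 genes to test.

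The nuclear pore is a large channel through the nuclear envelope, built from many copies of proteins called nucleoporins. Outer and inner rings form its scaffold, membrane proteins anchor it, disordered nucleoporins fill the channel, and filaments on the cytoplasmic side and a basket on the nuclear side dock cargo. Karyopherins carry cargo through the channel: importins bring proteins in, exportins take them and some RNAs out, and the GTPase Ran sets the direction. A circular RNA of such a gene forms when a splice donor is joined back to an acceptor upstream of it, so the circle reports on back-splicing of that transcript and not on the level of the protein.

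The cells, MDA-MB-468, are an established line from a human breast cancer, used here as a derivative made resistant to radiation by a total of 50 Gy given in fractions. All 4 libraries came from this derivative. The 2 controls carried a control hairpin (shCtrl, given the genotype WT) and the 2 others a stable hairpin against HNRNPL (shHNRNPL), an RNA-binding protein that regulates splicing, to find circles that depend on it. The extraction protocol names a single hairpin, shHNRNPL-1, so effects of the hairpin other than loss of HNRNPL were not tested. The design text calls the libraries of each group biological replicates. None of the rows named HNRNPL, so the knockdown rests on the labels.

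Library totals ranged from 282737 to 556578 counts, and levels are given below as counts per 100000 counts of the library. A count of 0 allows between 0.539 and 1.06 per 100000, taking 3 counts as the upper limit. Amplified copies carried no molecular identifiers, so these limits and all intervals cover counting error only. Control replicate 1 stood apart from the other 3 libraries: 19.7% of its counts lay in intron circles, against 9.93% to 10.6%, and for circles of the pore and karyopherin genes the share was 14.7%, against 6.98% to 7.75%. The 2 controls also differed more from each other than the 2 knockdowns did, with a mean chi-square per pore or karyopherin circle of 11.9 (53 circles) and 1.37 (31 circles). Of the epithelial markers looked at, EGFR had 200 circular counts, EPCAM 108, KRT5 2 and KRT8 and KRT18 0, which is no check of cell identity since linear mRNA was not measured.

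The circles on which the results turn are shown here with the exon blocks that the caller gave, in GRCh38.p14 coordinates. The IPO7 circle chr11:9408486-9414411, on the plus strand, is 470 nt long and joins blocks of 154, 159 and 157 nt. A second IPO7 circle, chr11:9445404-9446114, is a single block of 711 nt near the end of the gene. The NUP153 circle chr6:17665239-17669546, on the minus strand, is 363 nt long and joins blocks of 147, 54, 45 and 117 nt. The TNPO3 circle chr7:129014979-129018157, also on the minus strand, is 432 nt long with blocks of 157, 74 and 201 nt. The CSE1L circle chr20:49074785-49091022 holds 11 blocks and 1299 nt, and the NUP205 circle chr7:135577796-135593192 holds 7 blocks and 1182 nt. All of these but the 711 nt circle had the plain motif AG-GT, an acceptor AG before the circle and a donor GT after it. The 711 nt circle had AG-GT with an asterisk, a mark whose meaning is not given in the sources used here. All 6 lay inside the gene's RefSeq span on its strand.

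As a group, pore and karyopherin circles took shares of the library that differed between conditions by less than the spread between replicates. They held 1.29% and 1.37% of all counts in the controls against 1.35% and 1.32% in the knockdowns, which overlap. The means were 1.33% ± 0.0620 and 1.34% ± 0.0188 (SD, n = 2 each), a difference of 0.00818 percentage points (two-sided exact permutation test, p = 1, where 0.333 is the smallest p that 2 against 2 can give). Among exon circles alone the shares were 1.53% ± 0.0287 in the controls and 1.44% ± 0.0133 in the knockdowns, without overlap. That difference of -0.0813 points was larger than either SD (exact permutation test, p = 0.333, the smallest possible). These are bulk libraries, so fewer cells with a circle and fewer copies per cell cannot be told apart.

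No pore or karyopherin host gene passed the test of summed circular counts between knockdown and control. IPO7, IPO11, CSE1L and TPR had the smallest p among genes with more circular counts in the knockdown, and KPNA1, NUP93 and KPNA6 among those with fewer. None of the 41 genes tested was called at an adjusted p under 0.05 (edgeR's quasi-likelihood test, Benjamini-Hochberg), where 0.442% of all 8379 host genes were called, each of them higher in the knockdown. At an unadjusted p under 0.05, 4 of the 41 were higher and 3 lower, against 7.58% and 6.19% of all host genes. DESeq2 called 2, CSE1L and IPO7, or 4.88% against 2.21% of all host genes. With control replicate 1 left out, 11 of 39 were called, or 28.2% against 25.1% of all host genes, and with control replicate 2 left out 19 of 41, or 46.3% against 36.3%. With either knockdown left out 0 were called, as among all host genes. Of the 29 genes picked for naming, 13 had a log2 fold change that moved by over 1.5-fold when 1 library was left out, 12 of them most with a control, and 8 changed sign (NUP88, NUP54, NUP42, KPNA4, NUP107, XPO4, NUP155 and NUP50). The median log2 fold change was -0.02 over the 41 genes and -0.26 over all host genes. With scaling to library size alone these medians became -0.33 and -0.58, and the unadjusted split became 3 higher and 7 lower. Both knockdowns lay above both controls for 8 genes and below them for 15, or 19.5% and 36.6% of those tested, near the background of 15.3% and 36.7%. On simulated counts with the spread fitted here, this test recovered 59% of 8-fold and 13% of 4-fold changes, so changes below that size would often be missed.

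**Figure D1:**
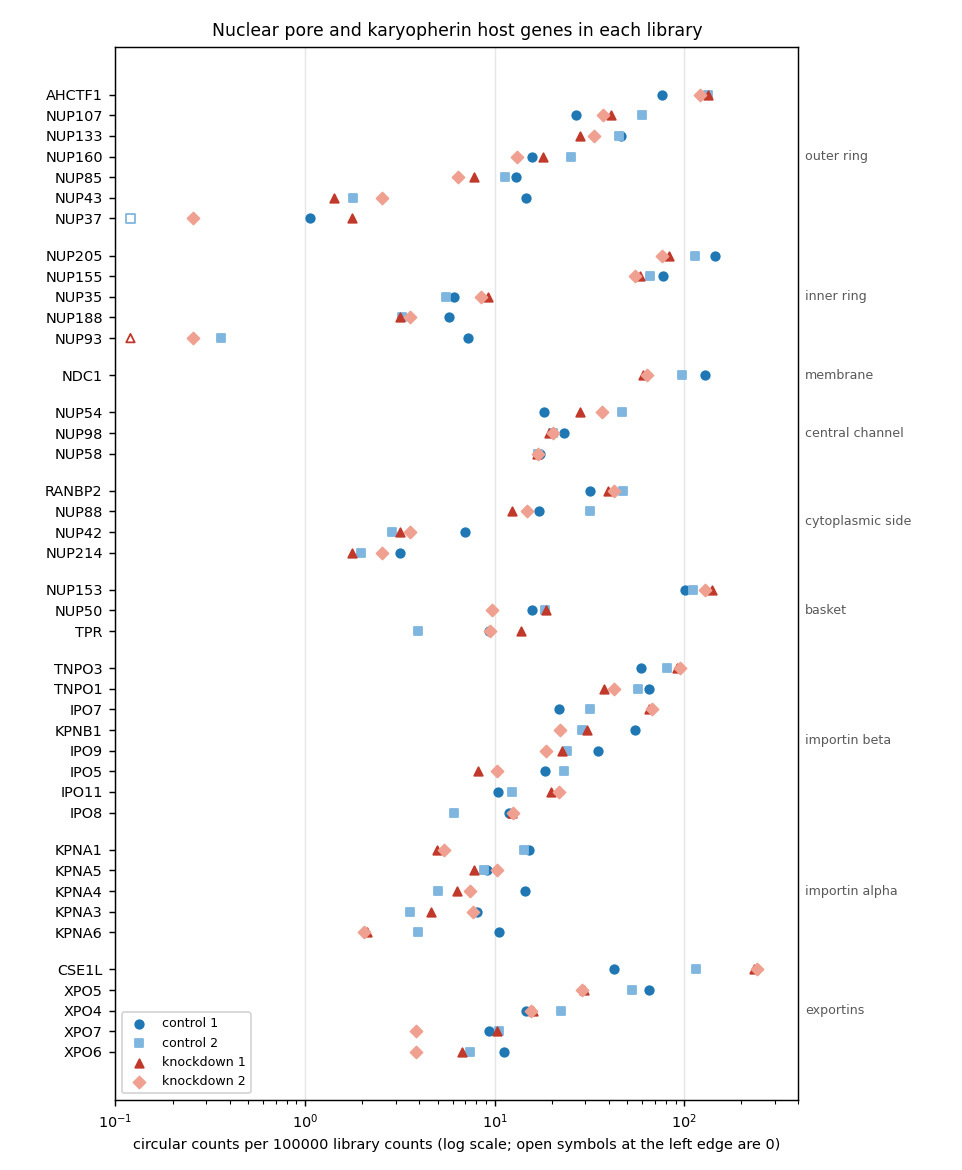
Circular counts per 100000 library counts (log axis) of the 41 host genes tested, grouped by role, with 1 symbol per library and open symbols for 0. CSE1L, IPO7 and IPO11 have both knockdowns to the right of both controls, while XPO5, NDC1 and KPNA1 have them to the left.

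**Figure D2:**
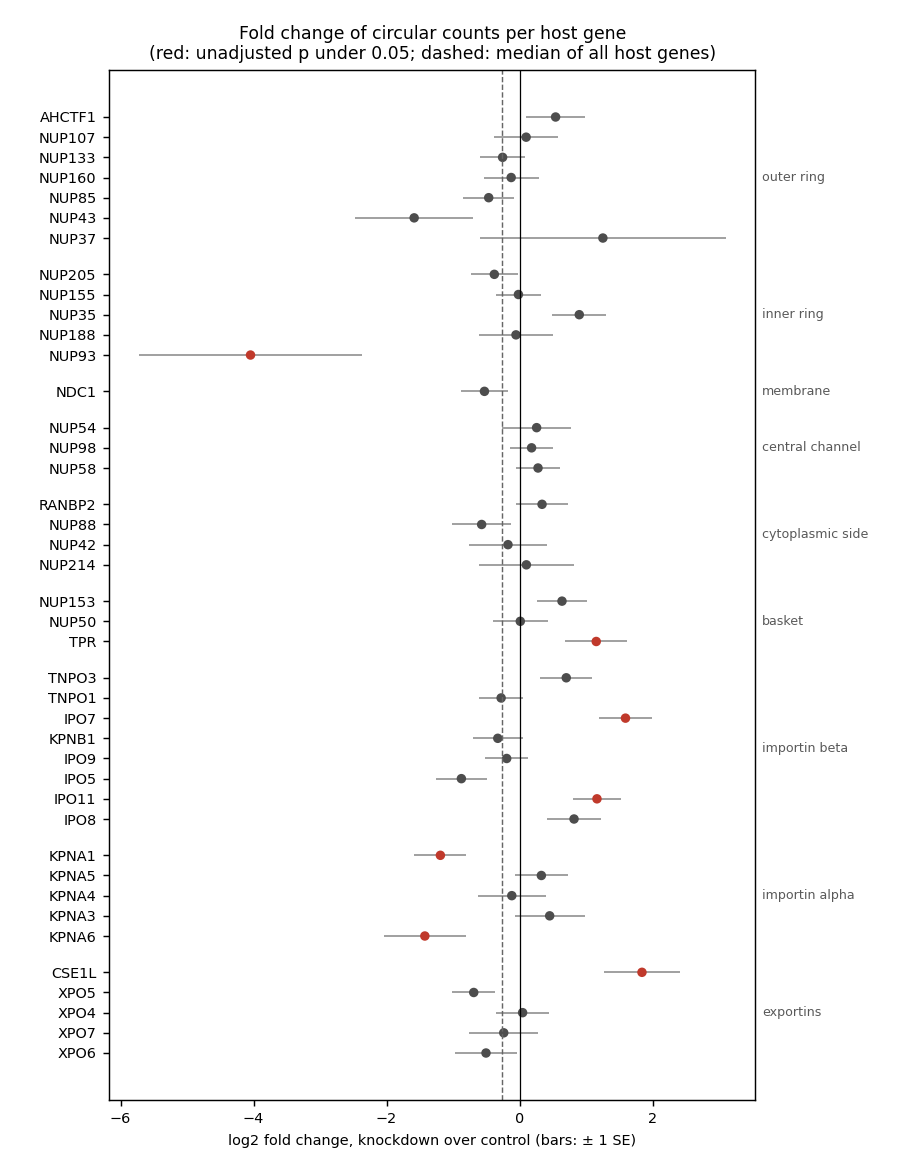
Log2 fold change of knockdown over control for the same 41 genes, with bars of 1 SE and the median of all host genes (-0.26) as a dashed line. The 7 genes in red had an unadjusted p under 0.05, and none passed after adjustment.

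The importin beta receptors, which bind cargo directly or through an adaptor and carry it inward, held 20.8% of the counts. Summed, their level was 271 ± 8.61 in the controls and 290 ± 0.922 per 100000 in the knockdowns (mean ± SD, n = 2 each), and single receptors went in different directions. IPO7, an importin for ribosomal proteins and other nuclear cargo (ENSG00000205339.10), stood at 21.8 and 31.8 per 100000 in the controls against at 65.4 and 67.6 in the knockdowns. Both knockdowns lay above both controls, by a log2 fold change of 1.59 (SE 0.39, adjusted p = 0.154). Leaving out control replicate 1 gave 1.30 and leaving out control replicate 2 gave 2.18, and both passed the threshold, with the lone control assumed to vary like the knockdowns. Of the 729 IPO7 counts, 225 came from 34 circles that also named SNORA23, a small nucleolar RNA gene, and the log2 fold change was 1.71 over circles that named IPO7 alone.

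IPO11, an importin of ubiquitin-conjugating enzymes, had 10.4 and 12.4 per 100000 in the controls against 19.8 and 21.8 in the knockdowns, again without overlap (log2 fold change 1.16, SE 0.36, adjusted p = 0.228). Of its 259 counts, 247 came from circles that also named a second gene known only by its identifier, ENSG00000288643. TNPO3, which imports splicing factors rich in serine and arginine, had 58.8 and 81.2 in the controls against 92.0 and 95.0 in the knockdowns (log2 fold change 0.70, SE 0.39, adjusted p = 0.455). IPO8 had 11.9 and 6.11 against 12.4 and 12.5, a narrow margin (log2 fold change 0.82, SE 0.40, adjusted p = 0.409). Of the 8 receptors tested, these 4 were higher without overlap and 3 were lower, where 15.3% and 36.7% of all host genes were.

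TNPO1, or transportin 1, the receptor of many RNA-binding proteins, had 64.8 and 57.0 per 100000 in the controls against 37.8 and 42.8 in the knockdowns (log2 fold change -0.28, SE 0.33, adjusted p = 0.742). Of the 897 TNPO1 counts, 550 came from 74 circles that also named MIR4804. Over circles that named TNPO1 alone the log2 fold change was 0.07. IPO5, an importin of ribosomal proteins and histones, had 18.4 and 23.2 against 8.13 and 10.2 (log2 fold change -0.87, SE 0.39, adjusted p = 0.372). IPO9, which imports histones and actin, had 35.1 and 24.1 against 22.6 and 18.7. KPNB1, importin beta itself, had 55.0 and 28.7 against 30.8 and 22.02, where the groups overlap.

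Importin alpha proteins, the adaptors that join cargo with a classical import signal to KPNB1, held only 2.98% of the counts. Their summed level was 47.3 ± 16.3 per 100000 in the controls and 29.3 ± 4.92 in the knockdowns (n = 2 each). KPNA1 was at 15.2 and 14.2 in the controls against 4.95 and 5.38 in the knockdowns, so both knockdowns were lower (log2 fold change -1.19, SE 0.39, adjusted p = 0.254). KPNA6 was at 10.6 and 3.95 against 2.12 and 2.05 (log2 fold change -1.42, SE 0.61, adjusted p = 0.360), and without control replicate 1 the log2 fold change was -0.68. Its leading circle, chr1:32108073-32161773, had 19 counts in control replicate 1 and 0 in every other library. KPNA4 was similar: its leading circle had 16 counts, all in control replicate 1, and the gene stood at 14.4 there and at 5.03, 6.37 and 7.43 in the others. KPNA5 overlapped between groups, at 9.10 and 8.80 against 7.78 and 10.2.

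Among the exportins, CSE1L and XPO5 went apart. Their summed level with XPO4, XPO6 and XPO7 was 176 ± 46.7 per 100000 in the controls and 296 ± 1.00 in the knockdowns. Of these 5 genes only CSE1L was higher without overlap, while XPO5 and XPO6 were lower without overlap. Such counts are near the shares over all host genes, 15.3% higher and 36.7% lower. CSE1L (ENSG00000124207.17), which returns importin alpha to the cytoplasm, was the host gene with the most counts, 2452. It had 42.3 and 116 per 100000 in the controls against 234 and 243 in the knockdowns. The knockdowns were close together and above both controls, which differed from each other (log2 fold change 1.84, SE 0.58, adjusted p = 0.233). Leaving out the first control gave 1.28 and leaving out the other gave 3.06, and both passed with the lone control assumed to vary like the knockdowns. XPO5, the exporter of microRNA precursors, had 65.2 and 52.8 in the controls against 29.7 and 28.9 in the knockdowns. It was lower in both knockdowns, by a log2 fold change of -0.69 (SE 0.33, adjusted p = 0.397). XPO4, which exports SMAD3 and other proteins, had 14.6 and 22.5 against 15.9 and 15.6. XPO1, the main protein exporter, was left out by the rule. Its circles had 629 and 1559 counts in the controls against 2389 and 3777 in the knockdowns, with a log2 fold change of 2.40 (SE 0.59, adjusted p = 0.155).

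The outer ring, the Y-shaped scaffold complex with AHCTF1 (ELYS) that seeds pore assembly on chromatin, held 17.4% of the counts. AHCTF1 (ENSG00000153207.16) had 76.2 and 134 per 100000 in the controls against 133 and 121 in the knockdowns. NUP107 had 26.9 and 60.2 against 41.0 and 37.1. For both genes the knockdowns lay between the controls, and the log2 fold changes were 0.54 (SE 0.45) and 0.10 (SE 0.48). Without control replicate 2 these were 1.31 and 1.11, and without control replicate 1 they were 0.16 and -0.39. NUP133, a stalk subunit of the same complex, had 46.4 and 45.3 against 28.3 and 33.5, without overlap (log2 fold change -0.25, SE 0.33, adjusted p = 0.766).

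The inner ring, which links the scaffold to the membrane and the channel, was at 216 ± 37.2 per 100000 in the controls and 149 ± 7.54 in the knockdowns (n = 2 each). NUP205, its largest host gene by counts, had 145 and 114 against 83.5 and 76.6 (log2 fold change -0.38, SE 0.35, adjusted p = 0.657). NUP155 had 77.5 and 65.8 against 58.7 and 55.1, with a log2 fold change of -0.02 (SE 0.33). NUP35, which contacts the membrane, had 6.14 and 5.57 against 9.196 and 8.45, both knockdowns higher (log2 fold change 0.90, SE 0.41, adjusted p = 0.382). NUP93, a scaffold linker, had 34 and 2 counts in the controls against 0 and 1 in the knockdowns, so its log2 fold change of -4.05 (SE 1.68, adjusted p = 0.345) came almost wholly from control replicate 1. The membrane anchor NDC1 had 128 and 96.8 per 100000 against 60.8 and 63.8, lower in both knockdowns (log2 fold change -0.53, SE 0.35, adjusted p = 0.507). NUP210, the other membrane protein, had 3, 0, 0 and 2 counts.

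Most channel and cytoplasmic nucleoporins overlapped between groups. NUP54 had 18.2 and 46.7 per 100000 in the controls against 28.3 and 36.6, NUP98 had 23.3 and 20.3 against 19.5 and 20.2, and NUP58 had 17.4 and 16.9 against 16.6 and 16.9. NUP98 was lower on this scale by a small margin, while its log2 fold change after TMM scaling was 0.18. RANBP2, the large Ran-binding protein of the cytoplasmic filaments, had 31.8 and 47.3 against 39.6 and 42.5. NUP88, on the same side, had 17.1 and 31.8 against 12.4 and 14.9, and NUP42 had 6.99 and 2.87 against 3.18 and 3.58.

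The basket nucleoporins summed to 129 ± 5.38 per 100000 in the controls and 160 ± 17.4 in the knockdowns (n = 2 each). NUP153 (ENSG00000124789.12), which anchors the basket, had 101 and 111 against 139 and 128 (log2 fold change 0.64, SE 0.37, adjusted p = 0.470). TPR, the coiled-coil protein of the basket fibres, had 9.31 and 3.95 against 13.8 and 9.47 (log2 fold change 1.15, SE 0.46, adjusted p = 0.333), and 1.76 without control replicate 1. Control replicate 1 and knockdown replicate 2 of TPR were nearly level. NUP50 had 15.7 and 18.5 against 18.7 and 9.73.

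Of the 25 other nuclear transport genes looked at, such as RAN and its regulators, 15 could be tested and none was called by edgeR (smallest adjusted p = 0.205). At an unadjusted p under 0.05, 3 were higher and 0 lower, where 7.58% and 6.19% of all host genes were. These were NMD3, the adaptor for export of the large ribosomal subunit (4.66 and 5.21 per 100000 against 12.03 and 9.99, log2 fold change 1.45), the SUMO protease SENP1 (1.25) and the XPO7 relative RANBP17 (1.11). The median log2 fold change of the 15 was -0.32, against -0.26 for all host genes.

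No single circle of these genes passed the adjusted threshold. The smallest p towards the knockdown belonged to circles of IPO7, NUP153, NUP107 and CSE1L, and towards the control to circles of NUP205, XPO5, TNPO1, NUP155 and KPNB1. Of the 382 circles with at least 10 counts, 0 were called by edgeR (0% of 21576 circles over the whole table), with a smallest adjusted p of 0.0949. At an unadjusted p under 0.05, 33 were higher and 15 lower, 8.64% and 3.93% against 9.29% and 4.26% over all circles. DESeq2 called 18 of them, 17 higher and 1 lower, or 4.71% against 4.88% of all circles. Leaving out control replicate 1 gave 72 calls among 289 circles, or 24.9% against 28.2% of all circles, and leaving out control replicate 2 gave 102 among 258, or 39.5% against 43.4%. Leaving out either knockdown gave 0, as among all circles. Both knockdowns lay above both controls for 82 circles and below them for 98, or 21.5% and 25.7% against 23.2% and 22.9%.

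**Figure D3:**
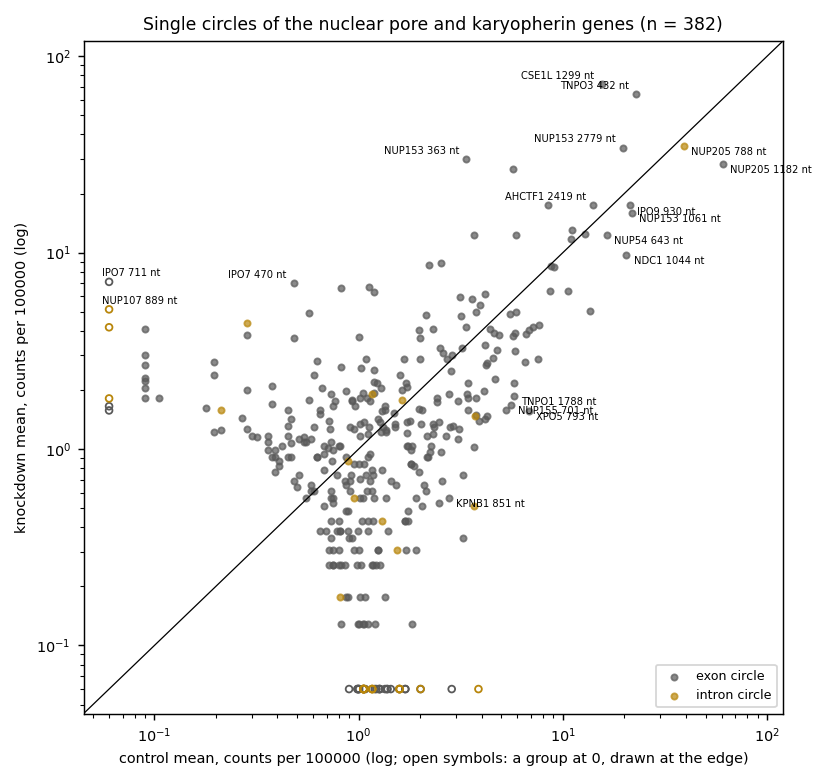
Mean counts per 100000 of the 382 circles with at least 10 counts in the controls (x) and the knockdowns (y), both on log axes, with the line of equal values and open symbols where a group is at 0. CSE1L 1299 nt, TNPO3 432 nt, NUP153 363 nt and the IPO7 circles of 470 and 711 nt lie above the line, and NUP205 1182 nt and XPO5 793 nt below it.

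IPO7 contributed both of the circles with the smallest p. The 711 nt circle had 0 counts in both controls and 17 and 32 in the knockdowns, or 6.01 and 8.19 per 100000. Against the limit of 3 counts per library, with the knockdown mean taken as exact, it was at least 12.1-fold higher in the knockdown (adjusted p = 0.0949). It reached the minimum of 10 counts through the knockdowns alone, so its small p is no support for a difference. The 470 nt circle had 2 and 3 counts in the controls against 17 and 31 in the knockdowns (edgeR, adjusted p = 0.0984). Its summed counts over summed library totals gave a ratio of 14.7 (95% interval 5.87 to 47.2). That interval covers counting error only and not the spread between replicates. This circle starts at an acceptor at 9408486 that 10 IPO7 circles share. These together had 14 and 31 counts in the controls against 59 and 79, or 2.96 and 5.57 against 20.9 and 20.2 per 100000. Of the 20 IPO7 circles with at least 10 counts, 11 were higher without overlap and 1 was lower, against 23.2% and 22.9% of all circles tested. The lower one was the circle with the most counts, chr11:9429674-9431003, a single block of 1330 nt with 22, 25, 7 and 13 counts in control 1, control 2, knockdown 1 and knockdown 2.

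**Figure D4:**
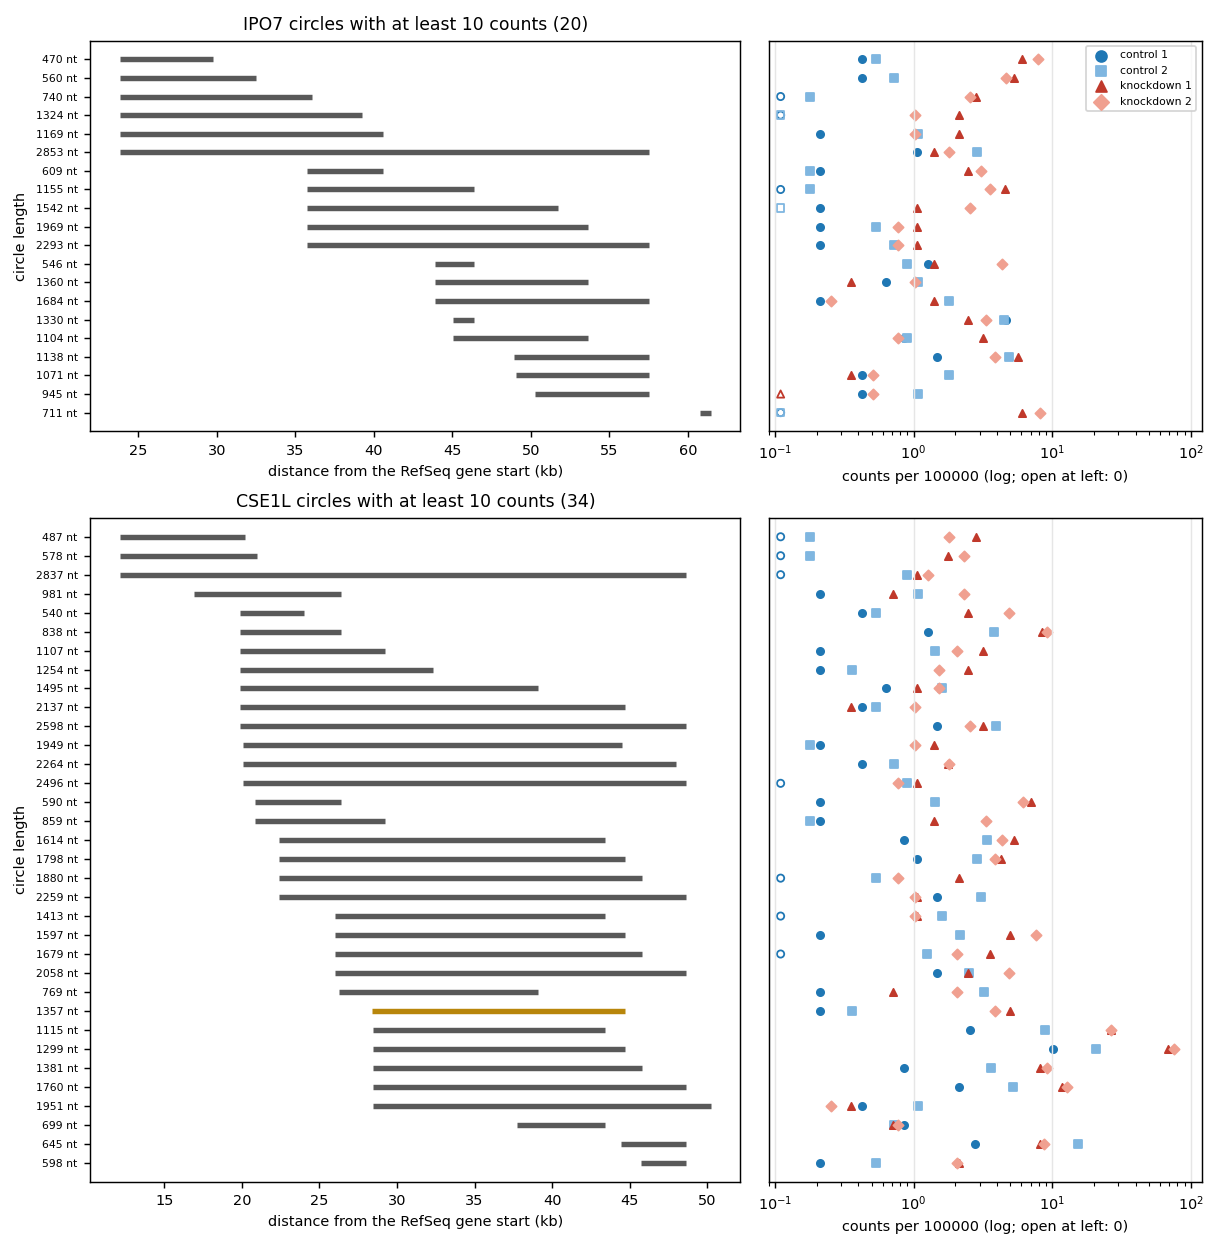
Left, the 20 IPO7 and 34 CSE1L circles with at least 10 counts as bars from their acceptor to their donor, in kb from the RefSeq start of the gene (gold for the intron type). Right, their counts per 100000 in each library (log axis, open symbols for 0), where knockdown symbols lie mostly to the right of control symbols for circles starting at the first shared acceptor of IPO7 and for most CSE1L circles.

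In CSE1L the difference was spread over many circles. Of 34 tested, 22 were higher without overlap and 2 lower, or 64.7% and 5.88% against 23.2% and 22.9% of all circles. An unadjusted p under 0.05 was found for 14, all higher, or 41.2% against 9.29% of all circles. Circles of 1 gene share its transcripts and are not independent of each other. The 1299 nt circle alone held 26.6% of the gene's counts, with 10.2 and 20.8 per 100000 in the controls against 68.3 and 75.8 in the knockdowns (log2 fold change 2.20, SE 0.37, adjusted p = 0.104). The acceptor it uses, at 49074785, is shared by 9 circles. That acceptor took 39.0% and 34.2% of the gene's counts in the controls against 49.6% and 51.5% in the knockdowns.

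The 363 nt NUP153 circle had 8 and 28 counts in the controls against 77 and 127 in the knockdowns, or 1.69 and 5.03 against 27.2 and 32.5 per 100000 (log2 fold change 3.13, SE 0.49, adjusted p = 0.0984). Leaving out control replicate 2 gave a log2 fold change of 3.97, and leaving out the first control gave 2.74. It took 1.68% and 4.55% of NUP153 counts in the controls against 19.5% and 25.4% in the knockdowns. The gene's leading circle, chr6:17624561-17649300 with 2779 nt, had 24.1 and 15.3 against 41.4 and 27.1 per 100000, and chr6:17661653-17675770 had 15.5 and 28.0 against 16.98 and 14.9. The 432 nt TNPO3 circle had 10.6 and 35.0 in the controls against 63.0 and 65.5 in the knockdowns (log2 fold change 1.52, SE 0.50, adjusted p = 0.272), which became 2.45 when control replicate 2 was left out and 1.04 when the first control was. It made up 17.99% and 43.1% of TNPO3 counts in the controls against 68.5% and 69.0% in the knockdowns. The leading IPO11 circle, chr5:62437274-62561257, joins 26 blocks into 2592 nt and had 3 and 9 counts against 17 and 29 (log2 fold change 2.51, SE 0.54, adjusted p = 0.144), and 3.21 without control replicate 2. An intron circle of NUP107, chr12:68713865-68714753 with 889 nt, had 0 and 0 counts against 11 and 25. With the knockdown mean taken as exact, it was at least 8.77-fold higher (adjusted p = 0.104). It too reached the minimum of 10 counts through the knockdowns alone.

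Circles with fewer counts in the knockdown were led by NUP205. Its 1182 nt circle had 279 and 348 counts in the controls against 78 and 113 in the knockdowns, or 59.1 and 62.5 against 27.6 and 28.9 per 100000. Both groups were tight and did not overlap (log2 fold change -1.17, SE 0.32, adjusted p = 0.204). The second large NUP205 circle, chr7:135636331-135645018, was typed as intron by the caller although it has 5 blocks. It had 50.0 and 28.4 against 38.6 and 31.5, which overlap. The XPO5 circle chr6:43555836-43567354 had 38 and 31 counts against 3 and 8 (log2 fold change -2.16, SE 0.60, adjusted p = 0.212). All 17 XPO5 circles tested had a log2 fold change below 0, as had 60.3% of all circles, and 10 of them, or 58.8%, were lower without overlap, against 22.9% of all circles. A TNPO1 circle, chr5:72861808-72893703, had 29 and 30 counts against 4 and 9, and a NUP155 circle, chr5:37342549-37358151, had 21 and 37 against 3 and 9. The KPNB1 circle chr17:47663089-47670832 had 10 and 19 against 1 and 3. In NDC1, 17 of 29 circles were lower without overlap, or 58.6% against 22.9% of all circles, led by chr1:53800693-53832591 with 107 and 102 counts against 26 and 40.

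The other large circles differed less. IPO9 chr1:201852104-201858994, which held 76.7% of that gene's counts, had 22.01 and 20.7 per 100000 against 18.4 and 16.4. NUP54 chr4:76134175-76144473 had 6.77 and 26.1 against 10.3 and 14.3, and AHCTF1 chr1:246853091-246888517 had 5.503 and 22.6 against 19.1 and 15.9. For the NUP54 and AHCTF1 circles the knockdowns lay between the controls.

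A test for unequal change among the circles of a gene called IPO7, NUP107 and AHCTF1. Of these, only IPO7 kept its call with at least 40 counts, in a test of 4 circles. The 711 nt IPO7 circle also reached 40 counts, through the knockdowns alone, so the kept call is no independent support. The test asks whether circles of 1 gene share a fold change, and is run over genes with at least 2 tested circles that name that gene alone. Of 32 pore and karyopherin genes, 3 passed: IPO7 (adjusted p = 0.000105), NUP107 (adjusted p = 0.0151) and AHCTF1 (adjusted p = 0.0168), where 4.08% of all 2327 genes passed (edgeR's diffSpliceDGE F test, Benjamini-Hochberg). The Simes method of the same tool passed 4, these 3 and NUP153, against 2.49% of all genes. IPO7, NUP107 and AHCTF1 lost their calls when either knockdown library was left out, as did nearly all genes of the whole table. Leaving out control replicate 1 gave 15 of 25 genes, or 60.0% against 47.7% of all genes, and leaving out control replicate 2 gave 16 of 27, or 59.3% against 50.2%. With circles of at least 40 counts only, IPO7 passed (adjusted p = 0.000249), AHCTF1 (0.386) and NUP107 (0.631) did not, and NUP153 (0.0207) and TNPO3 (0.0119) did, which made 3 of 16 genes, or 18.8% against 17.3% of all genes. With only exon circles that had an exact AG-GT, a choice made after seeing the data, IPO7 (adjusted p = 0.000211) and AHCTF1 (0.0362) passed, NUP107 did not (0.284), and NUP153 (0.0349) and TNPO3 (0.00489) did, which made 4 of 25 genes, or 16% against 11.5% of all genes.

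In IPO7 the acceptor at 9408486 took 13.6% and 17.5% of the gene's counts in the controls against 31.9% and 29.9% in the knockdowns. A second acceptor, at 9420411 with 6 circles, took 3.88% and 5.08% against 16.2% and 15.9%. The donor at 9442197, which 19 circles share, took 24.3% and 54.2% in the controls against 18.4% and 16.3%. Its level per 100000 was 5.29 and 17.2 against 12.03 and 11.01, which overlap. Of the 7 IPO7 sites with at least 5 circles and 40 counts, both of these acceptors and 2 donors, at 9425262 and 9431003, were higher in the knockdown without overlap in level, and 1 acceptor, at 9429674, and the other 2 donors overlapped between groups. In NUP107 the 889 nt intron circle stood against chr12:68713865-68715572, which begins at the same position, is also of the intron type and had 6 and 34 counts in the controls against 0 and 4 in the knockdowns. The leading NUP107 circle, chr12:68715627-68731719, had 14 and 56 against 7 and 12. In AHCTF1, an intron circle of 819 nt, chr1:246887358-246888176, had 0 and 0 counts against 12 and 16, while an exon circle of 3731 nt, chr1:246849615-246877302, had 9 and 7 against 0 and 0. The motif of the AHCTF1 intron circle was TT-AC and not AG-GT. The 711 nt IPO7 circle, the 889 nt NUP107 circle and both AHCTF1 circles reached the minimum of 10 counts through 1 group alone. Their contrast is therefore no support for the calls.

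**Figure D5:**
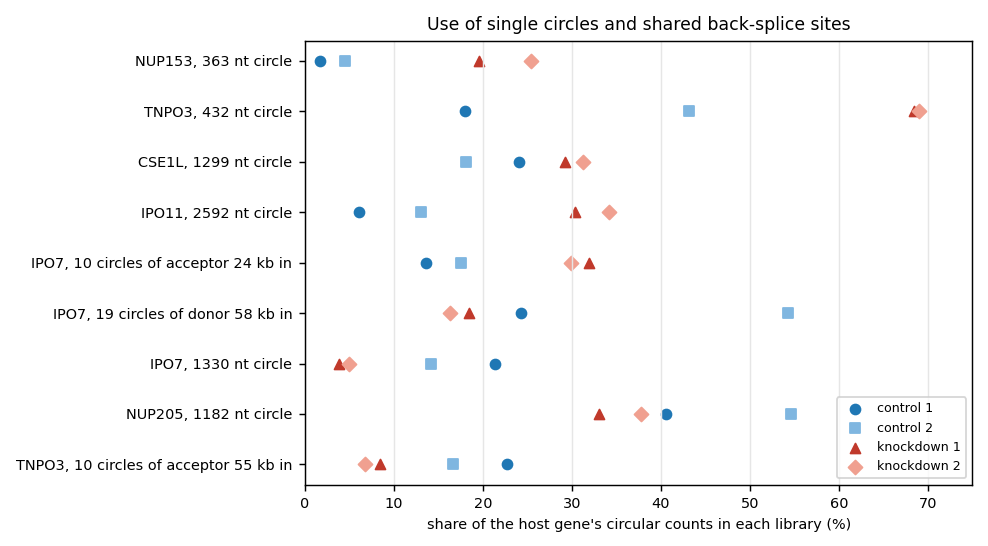
Share of the host gene's circular counts (%) taken by single circles or by all circles of a shared acceptor or donor, with 1 symbol per library and positions in kb from the RefSeq gene start. The entries were chosen after their values were seen: the upper 5 have both knockdowns to the right of both controls (NUP153 363 nt from 1.68% and 4.55% to 19.5% and 25.4%), and the lower 4 to the left.

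Some circles were seen in 1 group only. Of the 382, 6 had 0 counts in both controls and 36 had 0 in both knockdowns, 1.57% and 9.42% against 2.1% and 12.8% of all circles tested. Of the 36, 20 were seen only in control replicate 1, 9 only in control replicate 2 and 7 in both. One intron circle of XPO4, chr13:20876981-20879155, had 43 counts in control replicate 2 and none elsewhere. The knockdown libraries were shallower, and the part of depth in these absences was not tested.

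Pore and karyopherin exon circles held more exons than the rest of the table. Their median was 8 exons against 6 over all exon circles, 6.70% against 15.4% were single exons, and 30.1% against 19.7% had 12 or more. Median lengths were close, 1258 and 1248 nt. Among exon circles with at least 10 counts the medians were 8 against 7 exons and 1090 against 1179 nt. An exact AG-GT at the back splice was given for 63.6% against 54.9%, and for 91.5% against 81.2% of circles with at least 10 counts. Most circles were rare: 1198 of the 2476 were seen in 1 library, 317 in all 4, and the 382 circles with at least 10 counts held 72.9% of the counts. Circles that also named a second gene numbered 367 rows and 2227 of 22717 counts.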

How the data were processed

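Total RNA of 4 libraries was copied with Induro reverse transcriptase, amplified with phi29 polymerase, debranched and sequenced on Nanopore, per the labels' protocols. The deposited file holds raw counts per back splice, which the authors made with CIRI-long, per the file's columns. The build GRCh38.p14 is named in the submitters' processing notes, as is DESeq2. The aligner, base caller, CIRI-long version and filters are not given in the sources used here. Circle lengths and other annotation are as deposited by the authors. The second deposited table, whose CPM columns sum to 100000, was not used.

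Counts of circles that were not antisense (antisense: 3.76% of all counts; no gene named: 2.08%) were summed for every gene a row named. Host genes and circles that reached 10 counts in all were tested with edgeR's quasi-likelihood test and TMM (edgeR 4.0.16, R 4.3.3, default dispersion method), with Benjamini-Hochberg adjustment over the whole table and a threshold of 0.05. DESeq2 1.42.0, other scalings, filters, a replicate block and left-out libraries were alternatives. Standard errors were derived from the F statistic. The host gene test was tested on simulated data (spread of 0.462, 7809 genes, 3 false calls). Shares used exact permutation tests over libraries. Acceptors and donors were read from the circle ends by strand, and gene spans from RefSeq.

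Members and lists were chosen with earlier results of these data known. The rule named the 5 higher and 5 lower genes and circles by p, the 3 genes of each role and the 10 circles with most counts, and leading circles of named genes. No label says that a replicate number marks a shared culture or day, so the numbers were treated as names. Deviations of same-numbered libraries had a correlation of 0.0806 over 4944 circles. With a single difference in each group, this cannot exclude pairing. The genome sequence was not used here, so no back-splice flanks are printed.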

Additional observations from a re-analysis of the deposited data

How the results depend on the processing

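The count of pore and karyopherin host genes past the threshold was 0, and it was 2 under DESeq2, 2 with no filter on low counts and 2 with the replicate number as a block, CSE1L and IPO7 each time (4.88%, 4.55% and 4.88%, against 2.21%, 2.49% and 3.58% of all host genes). It stayed 0 under the other scalings, dispersion method, minimum of 40 counts, 1-gene circles and exon circles. Leaving out 1 library gave 0 to 19. For single circles the count was 0, and it was 18 under DESeq2, 8 with a minimum of 40 counts, 7 without a filter, 22 with at least 5 counts in each of 2 libraries, 5 among exon circles and 26 with the replicate block. These were 4.71%, 8.70%, 0.283%, 9.69%, 1.42% and 6.81%, against 4.88%, 11.4%, 0.248%, 12.1%, 1.70% and 7.51% of all circles. Leaving out 1 library gave 0 to 102. Genes with unequal change of circles numbered 3, 7 with the replicate block (21.9% against 21.1% of all genes), and 0 to 16 with 1 library left out. With at least 40 counts the count was again 3, but NUP153 and TNPO3 took the place of NUP107 and AHCTF1. Leaving out a control gave more calls (11 and 19 host genes, 72 and 102 circles, 15 and 16 genes of unequal change), among all genes and circles too. Without either knockdown the counts of host genes and circles stayed at 0 and that of genes of unequal change fell to 0. A lone library was assumed to vary like the other group. The share of counts differed by -0.0813 points among exon circles. Of the 37 circles named or leading a named gene, 20 moved by over 1.5-fold and 8 changed direction with 1 library left out, 3 of the 8 among those named by p or counts: the log2 fold change of NUP205 chr7:135636331-135645018 ran from -0.67 to 0.46, that of AHCTF1 chr1:246853091-246888517 from -0.22 to 1.499, and that of NUP54 chr4:76134175-76144473 from -0.89 to 0.73, with 0.013 without knockdown replicate 1. The cause of these differences was not tested. The replicate block rests on a number that was not shown to pair the libraries. Depth limits circles with few counts, since 3 counts are 1.06 per 100000 in the smallest library.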
